A study of Mus musculus with 2 samples.

Results

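The genes described here handle iron in the mammary gland: Tfrc and Slc11a2, which bring iron into cells, the metalloreductase gene Steap4, the ferritin genes Fth1 and Ftl1, which store it, the exporter gene Slc40a1, the ferroxidase gene Cp, the heme oxygenase gene Hmox1, and Aco1 and Ireb2, which encode the iron regulatory proteins. They were taken by name, as every probe set that the platform annotation gives to 1 of these 10 genes, which found 32 of 45101 probe sets. Of these, 26 carried the symbol of a single gene, 3 were Affymetrix control probe sets for Tfrc, and 3 were shared between Ftl1 and other genes. Thus 9 of the 10 genes had probe sets of their own, among 18193 named genes on the array.

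The mice were female CD1 animals, 6 weeks old when bought, with litters adjusted to 6 pups. Pups were taken away at day 10 of lactation, which counts as day 0 of involution, when the gland regresses once suckling stops. Glands were taken on day 0 or on day 1, and RNA from 5 mice was pooled for each day before hybridisation to 1 array per day. No genotype or agent other than weaning sets the groups apart. The milk protein genes Csn2 (signals 80907.5 and 31909.0) and Wap (76344.1 and 32034.9), which mark lactating mammary epithelium, were bright on both arrays. Each value below is therefore 1 measurement of 1 pool, the spread between mice is not visible, and no difference has a replicate check. Whole glands hold many cell types, so fewer cells of a type and less RNA per cell cannot be told apart.

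Cells take up iron bound to transferrin through the transferrin receptor, move it out of endosomes with a divalent metal transporter, keep what is not needed in ferritin, and release it through ferroportin. When iron is scarce, the iron regulatory proteins bind stem loops called iron responsive elements, which shield the transferrin receptor message from decay and hold back translation of ferritin and ferroportin. Heme oxygenase frees iron from heme. In lactation the secretory epithelium passes iron from blood to milk, where much of it is carried by proteins such as lactoferrin, and macrophages are the main cells known to recycle iron from engulfed cells.

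Of the 9 genes, 3 were at least 2-fold higher on day 1 (Hmox1, Slc40a1 and Cp) and 1 was at least 2-fold lower (Tfrc). This is 33.3% and 11.1% of the 9, beside 10.4% and 13.3% of 13239 measured genes that were at least 2-fold higher and lower. The members were chosen with earlier results of these data known, so these shares cannot show that iron genes stand out. The median log2 ratio of day 1 over day 0 was 0.23 for the 9 genes and -0.12 for all measured genes. The split between directions over all genes moves with the scaling. Of the genes past 2-fold, 43.8% were higher as deposited, 72.7% when the arrays were scaled on ribosomal protein genes, 84.1% when centred on their medians and 95.5% when scaled on the hybridisation controls. The 15 control probe sets used, for bacterial transcripts that are usually spiked in equally, themselves had a median log2 ratio of -1.16. Single controls ran from -2.14 to -0.50, so values under hybridisation control scaling are themselves imprecise. The 3 scalings raised the log2 ratios by a median of 0.42, 0.65 and 1.16, so a ratio is best read against the rest of the array. Under the same 3 scalings the median of all measured genes was 0.27, 0.49 and 0.97. A list median above 0 can thus still lie below that of all genes. At the probe set used for each gene, Tfrc stayed at least 2-fold lower, and Hmox1, Slc40a1 and Cp at least 2-fold higher, under all 6 scalings tried.

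**Figure D1:**
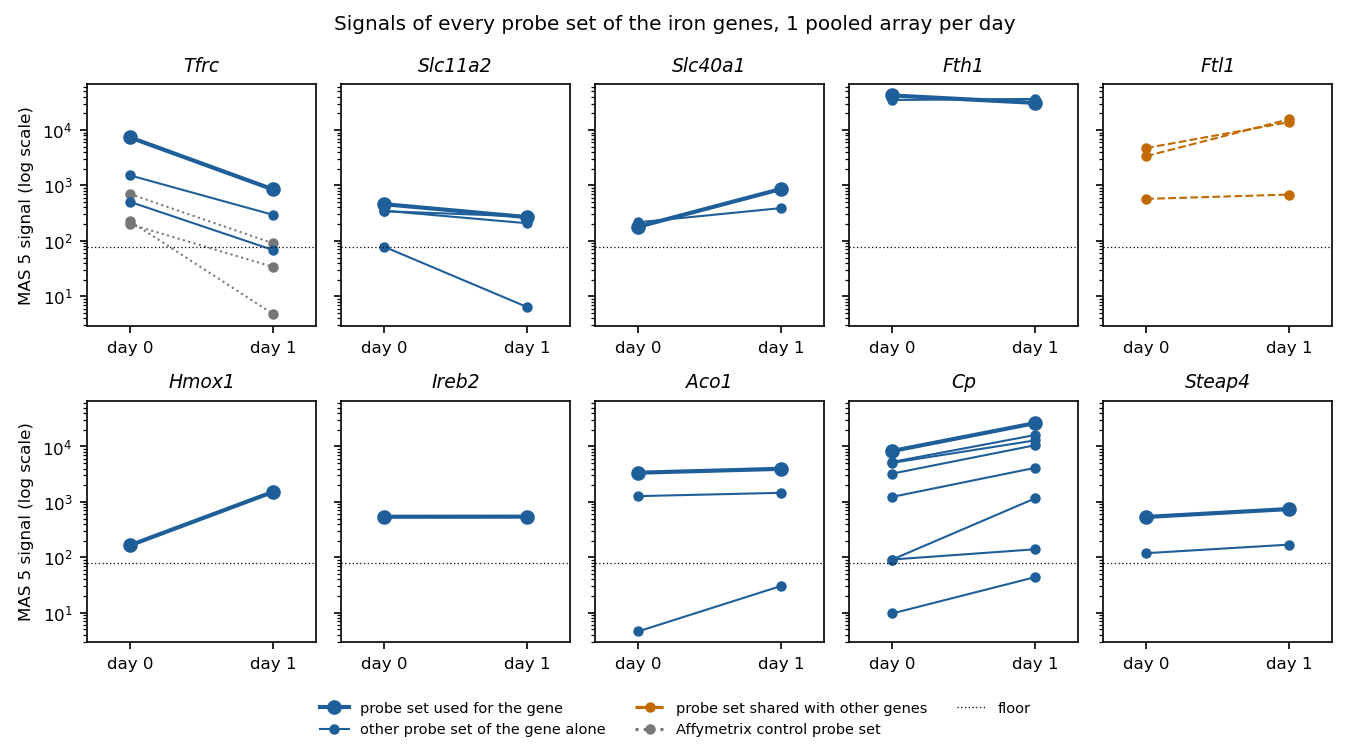
Signal of each probe set on day 0 and day 1, on a logarithmic axis, with 1 panel per gene; the thick line is the probe set used for the gene, dashed lines are probe sets shared with other genes, dotted lines are Affymetrix control probe sets, and the horizontal line is the floor of 77.7. All 6 Tfrc lines run down, whereas the lines of Hmox1, Slc40a1, Cp and the probe sets shared by Ftl1 run up.

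Tfrc, the receptor that takes up transferrin-bound iron, was the iron gene with the lowest ratio. Its brightest probe set had a signal of 7347.0 on day 0 and 846.2 on day 1, which is 8.68-fold lower. Only 33 of the 13239 measured genes had a lower log2 ratio than its -3.12. The next probe set went from 1518.3 to 294.7 (5.15-fold lower), and the dimmest from 504.8 to 68.4, which is below the floor and gives a log2 ratio of at most -2.70. Day 1 was the lower array in every one of these probe sets. The array also carries 3 control probe sets placed along the Tfrc transcript. The 3' one read 699.6 and 90.4 (7.74-fold lower), the middle one 226.1 and 4.8 (at least 2.91-fold lower) and the 5' one 199.5 and 33.9 (at least 2.57-fold lower). The lower day 1 signal was therefore present from the 3' to the 5' end, with the middle and 5' ends at the floor on day 1. The 3' signal of Tfrc was 3.51 times its 5' signal on day 0. The same ratio at the array's RNA quality controls was 2.50 on day 0 and 1.51 on day 1 for Actb, and 1.52 and 1.48 for Gapdh, and its part in the Tfrc values was not tested. Under the 6 scalings the log2 ratio of the brightest probe set ran from -3.25 with loess to -1.96 with the hybridisation controls.

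Cell types known for high transferrin receptor levels, red cell precursors and dividing cells, had few measured markers. The array held 8 erythroid markers, 5 of them measured, with 0 past 2-fold upward and 2 downward, and a summed signal that went from 1114.3 to 544.6. The 2 were Epor, the erythropoietin receptor (signals 164.3 and 78.5), and the alpha globin gene Hba-a1 (156.7 and 36.4, at least 2.02-fold lower), and scaling on the hybridisation controls put Epor at 0.10 log2. Hba-a2, Klf1 and Rhag were at the floor on both days. Of 13 proliferation markers, 5 were measured, 0 were at least 2-fold higher and 3 lower, and their summed signal went from 2632.2 to 995.4. Mki67 was 7.27-fold lower (1297.3 and 178.5) and Tpx2 2.87-fold lower (629.2 and 219.1), with 8 markers at the floor on both days. Tpx2 had -0.36 log2 under hybridisation control scaling, and its other probe sets had -1.38, -0.12 and a bound of -0.27. The remaining measured markers, named after their values were seen, were Top2a, Aurkb and Cdk1. Top2a had a bound of -1.02, with -0.03 at its other measured probe set, Aurkb a bound of -0.23, and Cdk1 -0.14 log2. The median log2 ratio was -0.91 for the erythroid list, and 0.16 under hybridisation control scaling. For the proliferation list it was -1.02, but above 0 under median centring (0.10), quantile normalization (0.073) and hybridisation control scaling (0.39). The part of these cell types in the ratio of Tfrc was not tested.

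The RefSeq promoter table of GRCm38.p6 held windows for 7 of the 10 genes, namely Cp, Aco1, Steap4, Ftl1, Ireb2, Tfrc and Fth1; Slc11a2, Slc40a1 and Hmox1 were not matched. The 250 bases before each start were searched on both strands for 4 motifs. The hypoxia response core ACGTG or GCGTG is shown for Tfrc, because Tfrc is known as a target of hypoxia inducible factors and gave the lowest ratio. Tfrc has 2 annotated starts, whose windows overlap and held 2 and 3 matches. The ACGTG match lies on the plus strand, 228 bases before the downstream start, and spans the upstream start, whose first transcribed base is chr16:32608896. It is in the stretch chr16:32608881-32608910, with the match in capitals.
Tfrc hypoxia core: cctcggtaggtgtACGTGcggaaggaagtg
This short core is common. It was found in 38.6% of the 32851 windows, and also in 1 window each of Fth1 and Ftl1. Of 13 measured genes of the hypoxia target list, which includes the factor gene Hif1a itself, 2 were at least 2-fold higher and 1 lower. The median log2 ratio was -0.30, and it was above 0 under median centring (0.11) and hybridisation control scaling (0.54). Both of these were below the medians of all measured genes under the same scalings (0.49 and 0.97). The growth factor gene Vegfa was 2.06-fold lower (1320.2 and 641.3, but 0.12 log2 under hybridisation control scaling), with -0.28 log2 at its other probe set. The glucose transporter gene Slc2a1 had a log2 ratio of -0.99 (but 0.17 under hybridisation control scaling), with -1.08 and -1.36 at its other probe sets. The prolyl hydroxylase gene Egln3 was 3.65-fold higher (272.7 and 995.1), with 0.13 log2 at its other probe set. Hif1a, the regulated subunit of the hypoxia inducible factor, was 2.02-fold higher, with only 0.06 and 0.13 log2 at its other probe sets. Whether the matches are bound in the gland was not tested, nor was the part of hypoxia in the ratio of Tfrc.

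Slc11a2 encodes the divalent metal transporter that carries iron out of endosomes. Its brightest probe set read 458.6 on day 0 and 268.1 on day 1, a log2 ratio of -0.77. The next 2 read 349.3 and 207.6 (-0.75) and 343.1 and 274.5 (-0.32). All 3 were lower on day 1 but under 2-fold, and the ratio of the brightest turned to 0.39 under hybridisation control scaling. The remaining probe set, 78.4 and 6.4, was barely above the floor on day 0 and gives no usable ratio. Steap4, a ferrireductase of the cell surface and endosomes that is known to respond to inflammatory cytokines, read 535.1 and 743.8 at one probe set and 118.8 and 169.6 at the other. The log2 ratios of 0.48 and 0.51 put it slightly higher on day 1 at both, and the first ranged from 0.34 with loess to 1.64 with hybridisation control scaling.

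The Steap4 promoter is printed because it was the only window of these genes with a STAT motif, TTCNNNGAA, or an NF-kB motif, the sites of factors activated by cytokines. The 250 bases before its start are chr5:7960222-7960471 on the plus strand, with both matches in capitals. The NF-kB match comes first and lies on the minus strand, and the STAT match reads on both strands.
Steap4 promoter: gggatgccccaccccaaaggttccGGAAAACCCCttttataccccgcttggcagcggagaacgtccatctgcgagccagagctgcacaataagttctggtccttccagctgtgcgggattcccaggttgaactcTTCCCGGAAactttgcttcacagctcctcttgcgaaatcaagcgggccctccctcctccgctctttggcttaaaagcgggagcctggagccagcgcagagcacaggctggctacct
The matches begin 226 and 116 bases before the start. Of all windows, 7.02% held the STAT motif and 5.0% the NF-kB motif. Neither was in the windows of the other genes. The antioxidant response core TGACNNNGC, present in 10.2% of all windows, was in none of the windows of these genes.

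**Figure D2:**
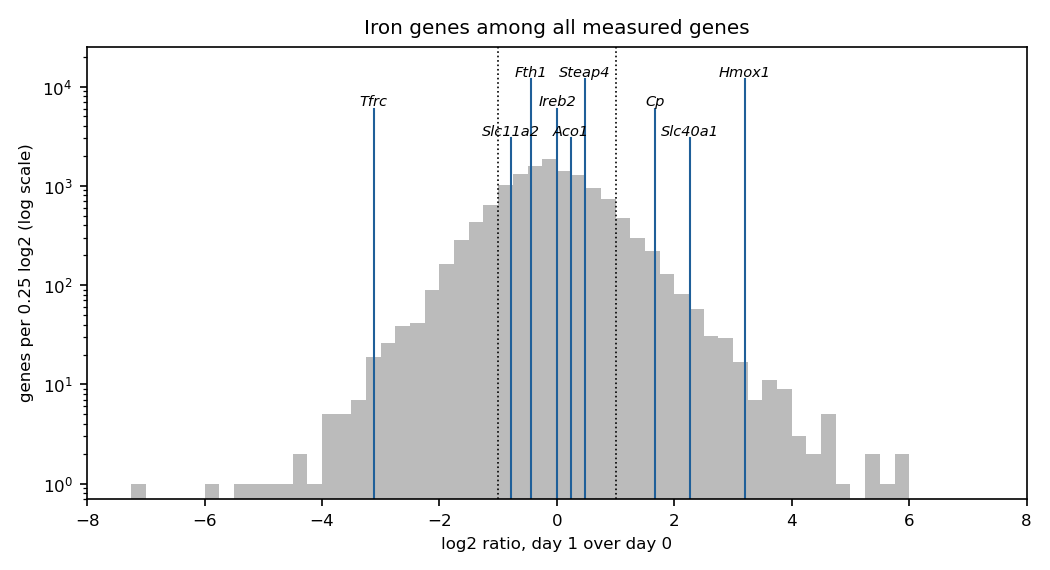
Histogram of the log2 ratios of the 13239 measured genes, in bins of 0.25 log2 with a logarithmic count axis; blue lines mark the 9 iron genes that have probe sets of their own, and dotted lines mark 2-fold. Tfrc at -3.12 and Hmox1 at 3.20 lie near the ends of the distribution, and 5 of the 9 lie within 2-fold.

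The ferritin heavy chain gene Fth1, whose product oxidises iron for storage, was among the brightest on both days. Its probe sets read 41930.7 and 30847.3 (log2 ratio -0.44) and 34784.7 and 36320.6 (0.06). The direction thus differs between the probe sets, and the first ratio was above 0 under 4 of the 6 scalings, with 0.17 for loess, 0.21 for median centring, 0.51 for quantile normalization and 0.72 for the hybridisation controls. On day 1 both signals were above 50% of the highest on the array, at 76.9% and 90.6%, a range in which signals may no longer track RNA. A level difference of Fth1 can therefore not be read from these probe sets.

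The ferritin light chain gene Ftl1 had no probe set of its own. The annotation gives 2 probe sets to both Ftl1 and its pseudogene copy Ftl1-ps2, and these read 3370.6 and 15613.5 (4.63-fold higher on day 1) and 4718.6 and 13833.7 (2.93-fold higher). Under the 6 scalings their log2 ratios ran from 2.27 to 3.37 and from 1.61 to 2.71. The remaining probe set, which also carries the names of 3 microRNA genes, read 570.9 and 683.7, a log2 ratio of 0.26. Both bright shared probe sets were thus higher on day 1, but how much of the signal comes from Ftl1 cannot be told apart from the copy. For this reason Ftl1 is not among the 9 genes counted.

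Slc40a1, the ferroportin gene and the only known exporter of cellular iron, was higher at both of its probe sets. The brighter by mean signal read 179.3 on day 0 and 861.8 on day 1, which is 4.81-fold higher. Its log2 ratio was exceeded by 176 of the 13239 genes. The other read 216.0 and 389.7, a log2 ratio of 0.85 against 2.27. The probe sets agree in direction but not in size, and the dimmer was past 2-fold only under median centring, ribosomal protein scaling (1.27) and hybridisation control scaling (2.01). With the mean of both probe sets the log2 ratio was 1.56.

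Cp encodes ceruloplasmin, a copper-containing ferroxidase that oxidises exported iron so that transferrin can bind it. Its probe set with the highest mean signal read 8277.7 on day 0 and 26396.3 on day 1, which is 3.19-fold higher. That day 1 signal was 65.8% of the highest on the array. The 4 other bright probe sets were below 50% on both days and read 5261.3 and 16099.2 (3.06-fold), 5064.7 and 12872.7 (2.54-fold), 3233.1 and 10532.3 (3.26-fold) and 1230.2 and 4119.1 (3.35-fold higher). The ratio was thus of similar size where the signal was farther from the top of the range. A dim probe set read 91.0 and 1158.6, which is 12.7-fold higher from a day 0 signal near the floor, and another read 91.3 and 139.6, a log2 ratio of 0.61. One more was at the floor on both days. In all, 6 of the 7 measured Cp probe sets were at least 2-fold higher and 0 lower. Ceruloplasmin is best known as a plasma protein made by the liver. Of 7 hepatocyte markers on the array, Alb, Apoa1, Ttr, Fgb, Ahsg and Apob were at the floor on both days, and the measured one, Cyp2e1, was 3.71-fold lower (2391.1 and 645.0), but -0.73 log2 under hybridisation control scaling.

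Hmox1, the inducible heme oxygenase that releases iron from heme, had the highest ratio of the 9 genes. Its single probe set read 164.7 on day 0 and 1514.7 on day 1, which is 9.20-fold higher. Of the 13239 measured genes, 46 had a higher log2 ratio than its 3.20. With 1 probe set there is no second reading of this value. The alternatives gave log2 ratios from 2.60 with a floor at the 75th percentile to 4.36 with hybridisation control scaling. By size of ratio its nearest neighbours were Ctps (3.16) and the transcription factor gene Jun (3.18) below, and S100a10 (3.21) and Lrg1 (3.23) above. This likeness is the ratio of 2 arrays only.

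Macrophages are known for high Hmox1 and Slc40a1. The array held 14 macrophage markers. Among the 12 measured, 3 were past 2-fold upward and 1 downward, with a median log2 ratio of 0.24, and the summed signal of the list went from 7406.2 to 9200.2. Cd68, a lysosomal protein of macrophages, was 2.94-fold higher (173.1 and 508.2) and the complement gene C1qa 2.35-fold lower (1729.5 and 736.5), but -0.069 log2 under hybridisation control scaling. The hemoglobin scavenger receptor gene Cd163 read 76.0 and 93.5, and Spic and Vsig4, known from macrophages that clear red cells or live in tissue, were at the floor on both days. The other past 2-fold, named after their values were seen, were Lyz2 (2.22-fold higher) and Mrc1 (2.01-fold higher). C1qb and C1qc, also named after their values were seen, had log2 ratios of 0.63 and 0.21. The remaining measured markers, likewise named afterwards, were Adgre1 (-0.83), Mertk (-0.48), Cd5l (a bound of -0.30), Csf1r (0.40) and Fcgr1 (0.20). Other probe sets of Csf1r had -1.12 and 0.45 log2. The part of macrophages in the ratios of Hmox1 and Slc40a1 was not tested.

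Both iron regulatory protein genes were under 2-fold. Aco1, whose product is cytosolic aconitase when it holds an iron-sulfur cluster and an RNA-binding protein when it does not, read 3363.1 and 3953.7 at its brightest probe set (0.23 log2) and 1271.0 and 1458.1 at the next (0.20). Ireb2, whose product is degraded when iron is plentiful, read 539.4 and 542.2 (0.01 log2). Both exceeded 2-fold with hybridisation control scaling alone (1.40 and 1.17), and Ireb2 was below 0 with loess (-0.11) and quantile normalization (-0.09). The arrays measure messages, while these proteins are known to be controlled after translation.

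**Figure D3:**
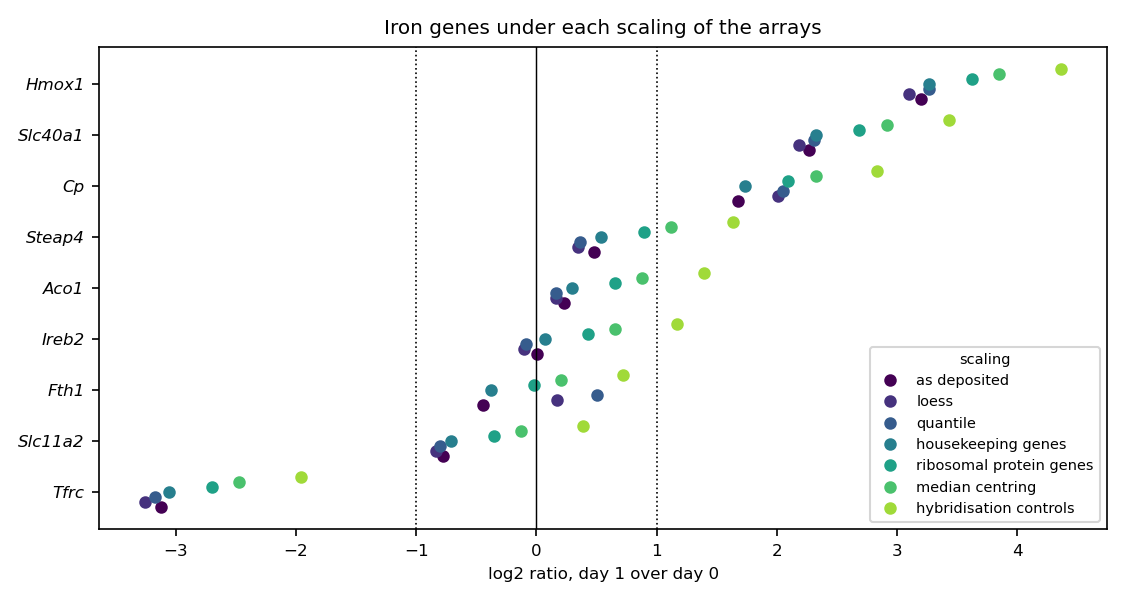
Log2 ratio of each of the 9 genes as deposited and under 6 other scalings of the arrays, 1 colour per scaling; dotted lines mark 2-fold. Tfrc stays below -1 and Hmox1, Slc40a1 and Cp above 1 in all, while Fth1, Ireb2 and Slc11a2 lie on both sides of 0.

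Other genes of the same processes were described by list. Of the genes of control by iron regulatory proteins and of messages known to carry an iron responsive element, 8 were measured, 2 were at least 2-fold higher and 0 lower, with a median log2 ratio of 0.65 (0.52 to 1.77 under the 6 scalings). Fbxl5, the ubiquitin ligase subunit that senses iron and targets the iron regulatory proteins, was 2.99-fold higher (204.1 and 610.9). Cdc42bpa, which read 91.3 and 244.0, was 2.67-fold higher, against bounds of -0.03 and 0.93 log2 at its dimmer measured probe sets. Ciao3, of cytosolic iron-sulfur assembly, had a log2 ratio of 0.73, and Alas2, the erythroid enzyme of heme synthesis, of -0.74.

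Of 13 measured genes of iron uptake and reduction, 1 was at least 2-fold higher and 4 lower, and the median was -0.47, above 0 under median centring (0.10) and hybridisation control scaling (0.57). Steap1, a relative of Steap4, was 9.07-fold lower (1826.7 and 201.5), and its other probe set read 1427.9 and 46.3, at least 18.4-fold lower. Steap1 was thus lower at both probe sets, and its log2 ratio was -2.02 under hybridisation control scaling. Steap2, another metalloreductase gene, was 3.26-fold lower at its brightest probe set (395.8 and 121.3), but the probe set with signals of 206.0 and 223.3 had a log2 ratio of 0.12, and the brightest had -0.54 log2 under hybridisation control scaling. Tfr2, the second transferrin receptor gene, was at least 2.50-fold lower (194.4 and 39.4), with a bound of -0.41 log2 at its other probe set. Lrp2, which was named after its value was seen, was at least 2.10-fold lower (163.3 and 51.5). Its other probe sets were at the floor on both days. Under hybridisation control scaling Tfr2 had a bound of -0.82 log2 and Lrp2 had -0.50 log2. The 1 higher gene was Cd44, a hyaluronan receptor, at 7.15-fold (117.8 and 841.8).

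Of 6 measured genes of storage, iron chaperones and ferritin turnover, 1 was at least 2-fold higher and 0 lower, with a median of 0.56 (0.44 to 1.73 under the 6 scalings, and 0.26 with the mean of all probe sets). The iron chaperone genes Pcbp1 and Pcbp2 had log2 ratios of 0.86 and 0.91, and those of Pcbp2's other probe sets were 0.03 and 0.78. Bola2 was 3.04-fold higher (290.4 and 883.3), but 1 of its probe sets was 2.44-fold lower. Glrx3, which works with Bola2 in iron-sulfur delivery, had -0.83 log2.

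Of 10 measured genes of export and the hepcidin axis, which sets ferroportin protein levels, 2 were at least 2-fold higher and 1 lower, with a median of -0.58 that was above 0 under hybridisation control scaling (0.49) and with a floor at the 75th percentile (0.26). Hephl1, a ferroxidase related to Cp, was 3.83-fold lower (2066.1 and 540.0), opposite to Cp, and had -0.77 log2 under hybridisation control scaling. The signal transducer gene Smad4 was 2.54-fold higher (1040.2 and 2643.0), with 0.84 and 0.76 log2 at its other probe sets. The receptor gene Acvr1 was 2.33-fold higher (187.2 and 436.5), with a bound of -1.03 log2 and a value of 0.47 log2 at its other probe sets. Hjv, a hepcidin regulator, had a log2 ratio of -0.99, but 0.18 under hybridisation control scaling.

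Of 12 measured genes of heme breakdown, transport and scavenging, 4 were at least 2-fold higher and 3 lower, with a median of 0.46 (0.40 to 1.61 under the 6 scalings, and 0.26 with the mean of all probe sets). Hp, which encodes the hemoglobin-binding acute phase protein haptoglobin, was 14.4-fold higher (113.2 and 1628.9). Lrp1, the receptor of the heme carrier hemopexin, was 3.14-fold higher (126.8 and 398.3). Blvrb, a biliverdin reductase gene that follows heme oxygenase, was 2.77-fold and Pgrmc1, a heme-binding protein gene, 2.79-fold higher. Abcg2, which exports porphyrins and moves riboflavin into milk, was 3.48-fold lower (17850.7 and 5134.6), Flvcr2 3.36-fold (321.7 and 95.7) and Slc46a1, a folate and heme carrier gene, 2.42-fold. Under hybridisation control scaling these 3 were within 2-fold, at -0.63, -0.59 and -0.11 log2. Blvrb, Pgrmc1 and Slc46a1 were named after their values were seen.

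Heme synthesis genes had a median of -0.42, which was above 0 under ribosomal protein scaling (0.0021), median centring (0.23) and hybridisation control scaling (0.74). Among the 10 measured, 2 were at least 2-fold lower and 0 higher. Ppox, an enzyme late in the pathway, was 2.70-fold lower (340.0 and 125.7, but -0.27 log2 under hybridisation control scaling), and Slc25a38, the mitochondrial glycine carrier gene, had -1.14 log2 (347.6 and 157.7), but 0.02 log2 under hybridisation control scaling. Uros had -0.96 log2 and Alas1, the first enzyme outside red cells, -0.84, but 0.21 and 0.32 log2 under hybridisation control scaling. Of 15 measured genes of mitochondrial iron and iron-sulfur cluster assembly, 1 was at least 2-fold lower and 0 higher. Their median was -0.10, above 0 under ribosomal protein scaling (0.32), median centring (0.55) and hybridisation control scaling (1.06). Slc25a37, the mitochondrial iron importer gene mitoferrin 1, was 2.14-fold lower (412.2 and 192.8) but 0.07 log2 under hybridisation control scaling, and the assembly genes Iba57, Isca1 and Isca2 had log2 ratios of -0.71, -0.68 and -0.66. The other 14 of the 15 genes were within 2-fold.

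Hmox1 is a known target of the transcription factor Nrf2, and so were the genes of the last list. Of 14 measured, 4 were at least 2-fold higher and 0 lower, with a median of 0.57 (0.51 to 1.74 under the 6 scalings, and 0.16 with the mean of all probe sets). Bach1, the heme-sensing repressor of Hmox1, was 3.40-fold higher (311.0 and 1057.4), with a bound of 0.55 log2 at its dim probe set. The oxidative stress genes Srxn1, 2.66-fold higher (252.5 and 671.2), and Osgin1, at least 3.01-fold higher (77.4 and 234.0), came next. With them was the thioredoxin reductase gene Txnrd1, 2.77-fold higher (1374.8 and 3804.4), whose other probe sets had a bound of 0.08 and a value of 0.23 log2. Nqo1, often used as a marker of Nrf2 activity and named after its value was seen, read 148.0 and 160.6, a log2 ratio of 0.12. The lowest ratios of the list, likewise named afterwards, were those of Me1, Slc7a11 and Gclc. Me1 was 1.99-fold lower (15954.8 and 8000.5), with -1.07 log2 at its other probe set, but 0.17 log2 under hybridisation control scaling. Slc7a11 had a bound of -0.63 log2, and Gclc had -0.49 log2, with 0.70 at its other probe set. The part of Nrf2 in the ratio of Hmox1 was not tested.

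**Figure D4:**
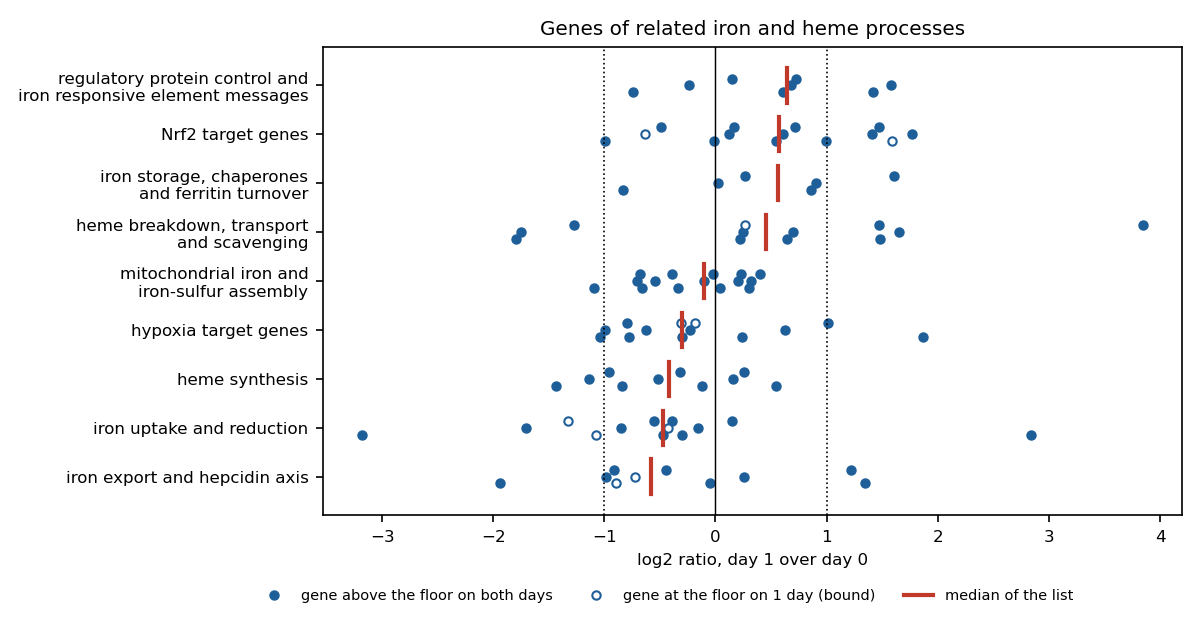
Log2 ratios of the measured genes of 9 related lists, 1 point per gene; open points are bounds from a signal at the floor on 1 day, red bars are list medians and dotted lines mark 2-fold. Steap1 at -3.18 and Hp at 3.85 are the outermost points, and the list medians lie between -0.58 and 0.65.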

How the data were processed

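RNA of 1 pool of mice per day was measured on 1 array per day. The authors deposited linear intensity values for each probe set (MAS 5 signals), per the labels. The deposited columns share a trimmed mean of 250 when 2% is cut from either tail. Of 45037 probe sets that were not controls, 34945 had 1 gene symbol, 932 several and 9160 none in the platform annotation. Gene identifiers of 34741 of these were found in the GRCm38.p6 RefSeq annotation, whose symbols were used.

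A floor of 77.7, the pooled median signal without controls, replaced lower values. The log2 ratio is that of the day 1 over the day 0 signal, and a gene with both signals at the floor was not measured. Where only 1 day was at the floor the ratio is a bound, and list medians include bounds. Each gene was represented by its probe set with the highest mean signal, held fixed under every scaling. Array medians were 94.2 for day 0 and 60.1 for day 1. With 1 array per day there is no test, p-value or replicate error, and the number of arrays limits the precision.

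Named genes were the iron genes, the 4 largest absolute ratios of each of 9 related lists, the 2 largest of each of 8 cell type lists, and the 2 genes on either side of the largest member ratio. The members and lists were chosen with earlier results of these data known. Alternatives were 6 scalings, 2 other floors, an added pseudocount of 16 in place of a floor, averaging over probe sets, leaving out shared probe sets, and thresholds of 1.5-fold and 3-fold. The loess span was 0.3. Scaling lists held 45 ribosomal protein genes and 8 housekeeping genes, the latter without Tfrc. The scripts, run with Python 3.11.15, pandas 2.3.3 and statsmodels 0.14.6, were tested on simulated data.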

Additional observations from a re-analysis of the deposited data

How the results depend on the processing

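Over all genes, the count at least 2-fold higher, 1374, became 3631 under median centring, 2658 under ribosomal protein scaling, 6292 under hybridisation control scaling, 852 with a floor at the 75th percentile, 2701 at 1.5-fold and 510 at 3-fold. The count lower, 1764, became 685, 998 and 295 under the same scalings, 4306 with a floor at the 25th and 606 at the 75th percentile, 3051 with no floor and a pseudocount of 16, 3602 at 1.5-fold and 573 at 3-fold. Among the iron genes, the 3 higher became 6 under hybridisation control scaling, and the 1 lower became 2 at 1.5-fold. The median of the proliferation markers, -1.02 as deposited, was 0.10 under median centring, 0.073 after quantile normalization and 0.39 under hybridisation control scaling. Tfrc, Hmox1, Slc40a1 and Cp kept their direction and stayed past 2-fold under all 11 alternatives, whereas Fth1 kept its direction in 6, Ireb2 in 9 and Slc11a2 in 10. No alternative used the other Slc40a1 probe set alone, which had a log2 ratio of 0.85 as deposited. The cause of these shifts was not tested. No paired analysis was possible because each day has 1 array. Signals near the floor, such as the dim Cp and Cdc42bpa probe sets, and those near the top, such as Fth1, limit what the arrays can show.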

Other observations

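Markers of 4 further cell types were read on the same arrays. Of 12 luminal and milk protein genes, 5 were at least 2-fold higher and 6 lower, and the 6 were within 2-fold under hybridisation control scaling. Among these 6, the milk protein genes Csn1s1, Csn2, Lalba and Wap had signals above 50% of the highest on both days, a range in which signals may no longer track RNA. The keratin genes Krt7 (17.8-fold, 144.8 and 2575.3) and Krt19 (7.55-fold, 692.2 and 5228.8) were the farthest from 0. None of 8 measured adipocyte markers was past 2-fold, and Lep (0.93 log2) and Cidec (-0.64) differed most. Of 9 measured endothelial markers, 1 was higher and 1 lower, namely Cldn5 (2.04-fold higher) and Kdr (2.02-fold lower, but 0.15 log2 under hybridisation control scaling). Of 4 measured neutrophil markers, S100a8 was at least 4.97-fold higher (73.9 and 386.0) and Csf3r had a bound of -0.96 log2, while Mpo, Elane, Camp and Cxcr2 were at the floor on both days. Among secreted iron-binding proteins of milk, a pair chosen after their values were seen was bright on both days. Lcn2, the siderophore-binding lipocalin, read 28127.8 and 31116.0 and the lactoferrin gene Ltf 37921.5 and 28931.9. The day 1 signals were 77.6% and 72.2% of the highest on the array, so no difference is read from them.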
